A study of Mus musculus with 13 samples.

Results

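Genes of major histocompatibility complex (MHC) antigen presentation were followed through RNA sequencing of whole mouse mammary glands. The members were all table rows whose symbol starts with H2-, together with B2m, Tap1, Tap2, Tapbp, Nlrc5, Psmb8, Psmb9 and Psmb10 for class I and Cd74 and Ciita for class II. There were 54 members among 23951 gene symbols. By symbol, 40 belong to class I and 12 to class II, and H2-Ke2 and H2-Ke6 carry the prefix only through their position in the H2 region. By its title, the study addressed the tyrosine kinase JAK1 in inflammatory cytokine signals and in the remodelling of the gland. The 4 groups were Jak1 conditional knockout glands at day 2 of involution (titles beginning Jak1_43196, Jak1_43767, Jak1_44176 and Jak1_44440), wildtype control glands at that stage (Jak1_44448, Jak1_43768 and Jak1_43914), Jak1 conditional knockout glands at day 7 of lactation (Jak1_44174, Jak1_42734 and Jak1_43767) and wildtype control glands of lactation (Jak1_42186, Jak1_43768 and Jak1_44175). Values per library follow this order of mice throughout. The numbers Jak1_43767 and Jak1_43768 stand at both stages, so the titles carry 11 numbers, where the extraction protocol counts 7 knockout females and 6 control mice. The Cre line, the strain and the H-2 haplotype were not given in the sources used here.

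Class I molecules consist of a heavy chain such as H2-K1 or H2-D1 and the light chain B2m, and show peptides from the cytosol to CD8 T cells. The immunoproteasome subunits PSMB8, PSMB9 and PSMB10 cut these peptides, TAP1 and TAP2 pump them into the endoplasmic reticulum, and tapasin (Tapbp) helps to load them. Class II molecules, pairs of an alpha and a beta chain, show peptides from endosomes to CD4 T cells, with CD74 as their chaperone and H2-DM as the exchange catalyst. NLRC5 and CIITA are the transactivators of class I and class II genes. Interferon gamma, whose receptor uses JAK1 and JAK2, induces both classes. Class II is made mainly by dendritic cells, macrophages and B cells, and class I by almost all nucleated cells.

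The promoters of 6 members are shown because these genes carry the results: the heavy chains H2-K1, H2-D1 and H2-Q10 and the light chain gene for class I, and an alpha and a beta chain for class II. They are RefSeq sequences of build GRCm38.p6, another build than that of the deposited tables, and run from 250 bases before to 50 bases after the annotated start. Capitals mark matches to 4 motifs searched on both strands: ATTGG, the core of the Y box of MHC promoters (CCAAT on the other strand), GGGATTCCC, a binding site of NF-kB and other enhancer A factors, GAAANNGAA, a core of interferon response elements, and TTCNNNGAA, the core bound by STAT dimers.
H2-K1: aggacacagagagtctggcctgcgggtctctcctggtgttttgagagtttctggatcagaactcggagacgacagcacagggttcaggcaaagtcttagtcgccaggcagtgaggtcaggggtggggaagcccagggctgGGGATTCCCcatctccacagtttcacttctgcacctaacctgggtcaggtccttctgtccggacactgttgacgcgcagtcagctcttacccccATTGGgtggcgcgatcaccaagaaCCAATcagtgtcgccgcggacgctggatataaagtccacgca
H2-D1: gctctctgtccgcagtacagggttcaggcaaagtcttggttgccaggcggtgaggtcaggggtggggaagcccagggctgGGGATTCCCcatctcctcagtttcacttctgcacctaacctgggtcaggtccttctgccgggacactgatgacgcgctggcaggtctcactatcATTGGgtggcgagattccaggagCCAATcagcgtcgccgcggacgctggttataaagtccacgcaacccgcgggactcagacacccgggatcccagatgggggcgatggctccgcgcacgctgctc
H2-Q10: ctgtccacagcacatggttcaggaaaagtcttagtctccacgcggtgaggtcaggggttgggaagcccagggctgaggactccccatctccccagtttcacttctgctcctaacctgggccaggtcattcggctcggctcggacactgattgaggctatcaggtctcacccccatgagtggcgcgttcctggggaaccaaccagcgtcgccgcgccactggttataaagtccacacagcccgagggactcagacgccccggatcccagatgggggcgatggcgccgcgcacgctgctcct
B2m: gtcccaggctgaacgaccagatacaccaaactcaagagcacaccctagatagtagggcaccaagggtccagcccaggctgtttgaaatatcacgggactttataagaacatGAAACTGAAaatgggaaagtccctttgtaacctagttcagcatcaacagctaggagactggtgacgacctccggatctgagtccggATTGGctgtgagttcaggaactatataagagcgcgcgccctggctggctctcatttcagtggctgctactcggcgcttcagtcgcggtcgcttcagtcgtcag
H2-Aa: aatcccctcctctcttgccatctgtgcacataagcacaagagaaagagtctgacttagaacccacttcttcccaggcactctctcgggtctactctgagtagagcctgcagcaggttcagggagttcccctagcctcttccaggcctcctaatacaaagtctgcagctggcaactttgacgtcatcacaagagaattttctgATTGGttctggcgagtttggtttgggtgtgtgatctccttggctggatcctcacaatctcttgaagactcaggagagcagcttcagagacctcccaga
H2-Eb1: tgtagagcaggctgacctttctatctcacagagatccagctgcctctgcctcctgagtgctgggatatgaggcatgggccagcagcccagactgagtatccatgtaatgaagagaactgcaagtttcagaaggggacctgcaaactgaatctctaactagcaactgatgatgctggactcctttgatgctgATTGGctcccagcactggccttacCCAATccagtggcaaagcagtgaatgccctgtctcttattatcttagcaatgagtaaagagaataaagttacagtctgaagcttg
The windows lie at chr17:34000298-34000597 (minus strand, H2-K1), chr17:35262844-35263143 (plus, H2-D1), chr17:35469839-35470138 (plus, H2-Q10), chr2:122147437-122147736 (plus, B2m), chr17:34287774-34288073 (minus, H2-Aa) and chr17:34305617-34305916 (plus, H2-Eb1).

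H2-K1 and H2-D1 both held GGGATTCCC, 110 and 170 bases before their starts, and ATTGG on each strand. The ATTGG matches lay 16 bases before and at base 9 after the annotated start in H2-K1, and 76 and 53 bases before it in H2-D1. These distances depend on where the start is annotated, which differs between these genes relative to the motifs. H2-Q10, a heavy chain that is secreted, held none of the 4 motifs in this window. B2m held the interferon response core 139 bases before its start and ATTGG at 53 bases. H2-Aa held ATTGG 48 bases and H2-Eb1 59 bases before the start. Of the 54 members 37 had a promoter entry, and the first entry of each gene was used. ATTGG was present in 23 of 28 class I and 7 of 8 class II promoters, against 37.9% of all 27025 promoters. GGGATTCCC was present in 4 of 28 class I promoters (H2-K1, H2-D1, H2-Q6 and H2-Q7) and 0 of 8 class II promoters, against 0.37% of all. GAAANNGAA was present in 3 of 28 (B2m, H2-T22 and H2-T23) and 0 of 8 (8.57% of all), and TTCNNNGAA in 3 of 28 (Psmb8, H2-M3 and H2-M11) and 1 of 8 (H2-DMb2; 8.47% of all). The search for GAAANNGAA fixed the order of its parts, GAAA before GAA, and did not cover GAA before GAAA. The stretch tttcacttc in the H2-K1, H2-D1 and H2-Q10 windows has that other order on the opposite strand and was not counted. The share of promoters with the other order was not computed. These counts therefore do not show that the classical class I promoters lack an interferon response core. Class I heavy chain genes are copies of each other, so their promoters are not independent. A match describes the letters and is no sign of binding.

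The libraries set limits that bear on all results. Sequenced fragments per library are not given, and 14546 to 17373 symbols had a value above 0 FPKM, the fragments of a gene scaled to its length and to the fragments mapped in the library. The FPKM of control Jak1_44175 at lactation summed to 871630, against 312976 to 421592 in the other lactation libraries, and that of knockout Jak1_43196 at involution to 1367558, against 590437 to 958496 in the other involution libraries. Skeletal muscle markers summed to 4215 FPKM in knockout Jak1_44176 and skin keratinocyte markers to 138 FPKM in knockout Jak1_43767 at involution, against at most 1067 and 3.64 FPKM in the other involution libraries. Jak1 ranged from 17.3 to 26.3 FPKM in knockouts and 24.0 to 24.6 FPKM in controls at involution, and from 9.51 to 11.2 FPKM in knockouts and 6.18 to 14.2 FPKM in controls at lactation. The groups overlapped at both stages, at lactation through control Jak1_44175 alone, whose value was the lowest. A value summed over all exons and all cells of the gland does not check a conditional deletion. The luminal epithelial markers of the labelled tissue were present, with Epcam at 58.6 FPKM or more in every library. In bulk tissue, fewer cells of a type and less RNA per cell cannot be told apart.

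At day 2 of involution, no class I or class II member differed between knockout and control glands past the threshold. B2m, H2-K1, H2-D1, Cd74, H2-Aa and H2-Ab1 stood above 100 FPKM in all 7 libraries, and the SD of B2m, H2-K1, H2-D1 and Cd74 was larger over the knockouts than over the controls. Of 28 class I members tested, 0 passed an adjusted p of 0.05 with limma (lowest 0.455), and 7 had an unadjusted p under 0.05. Of 10 class II members tested, 0 passed (lowest adjusted p = 0.541), and 2 had an unadjusted p under 0.05. Among all 12509 genes tested, 9 passed (0.0719%) and 855 had an unadjusted p under 0.05 (6.84%). Without control Jak1_44448, Jak1_43768 or Jak1_43914 the 9 became 2, 2 and 3. The median log2 difference was 0.27 over the class I members, 0.01 over the class II members and 0.01 over all genes. Of the class I members 19 of 28 were above 0, and of the class II members 6 of 10, against 51.8% of all genes. A member enters these counts only if 3 of the 7 libraries reached 1 FPKM, so they describe the tested members and not all of them.

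The classical class I genes were among the most abundant members. The heavy chain gene H2-K1 stood at 308, 358, 383 and 225 FPKM in knockout glands, against 243, 296 and 228 FPKM in control glands (log2 difference 0.32 ± 0.24 SE, limma adjusted p = 0.940). The other classical heavy chain gene, H2-D1, stood at 276, 298, 397 and 317 FPKM in knockout glands, against 380.3, 374 and 409 FPKM in control glands (log2 difference -0.25 ± 0.19, adjusted p = 0.942). In both genes the groups overlapped, and their signs were opposite. The light chain gene B2m stood at 737, 792, 905 and 332 FPKM in knockout glands, against 474, 604 and 519 FPKM in control glands (log2 difference 0.31 ± 0.36, adjusted p = 0.974). Knockout Jak1_44440 was below every control and the other 3 knockouts were above every control. Without knockout Jak1_44440 the B2m difference was 0.64 (adjusted p = 0.463). Fibroblast and adipocyte marker sums were also lowest in Jak1_44440 among the knockouts, whereas the endothelial and lymph node stroma sums were not. The summed FPKM of 7 fibroblast markers was 831, 416, 676 and 316 in knockout glands, against 427, 182 and 268 in control glands, and that of 7 adipocyte markers was 10815, 14295, 15684 and 4513 in knockout glands, against 7907, 7502 and 3959 in control glands. Their part in the class I levels was not tested. H2-L, a heavy chain gene that not all strains carry, ranged from 0.123 to 8.01 FPKM in knockout glands and from 1.17 to 2.37 FPKM in control glands.

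**Figure D1:**
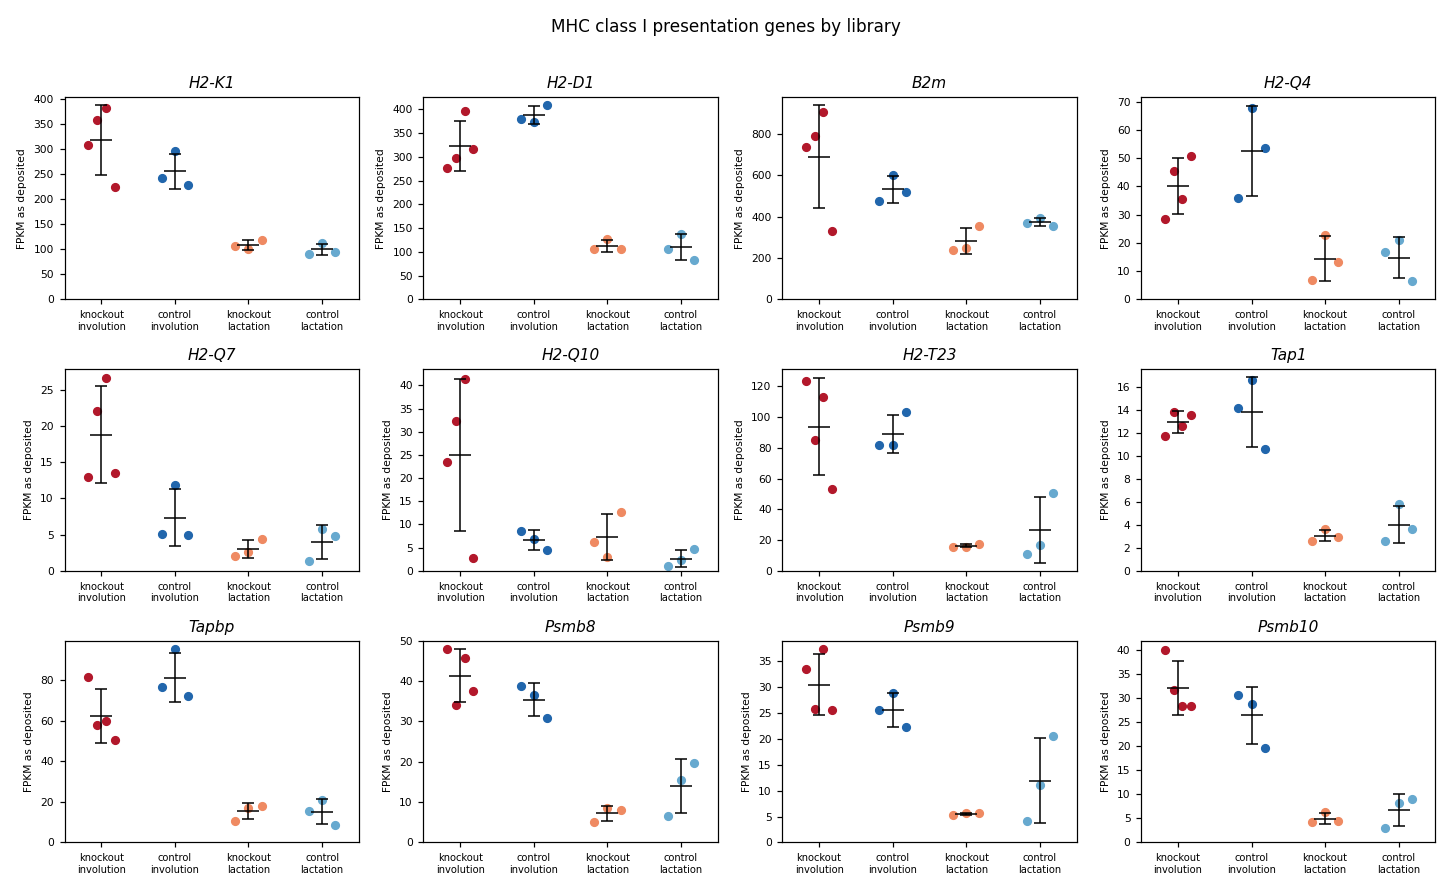
FPKM of 12 class I presentation genes in each library (points), by genotype and stage. Horizontal bars are group means and error bars SD (n = 4 knockout and 3 control libraries at involution, 3 and 3 at lactation), drawn down to 0 only. H2-Q7 is the gene in which all 4 knockouts at involution (12.96 to 26.6 FPKM) lie above all 3 controls (4.996 to 11.8 FPKM).

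Non-classical class I genes of the Q and T regions showed the differences with the smallest p, in both directions. H2-Q7, a member of the Qa-2 family, stood at 12.96, 22.1, 26.6 and 13.6 FPKM in knockout glands, against 5.11, 11.8 and 4.996 FPKM in control glands (log2 difference 1.31 ± 0.35, limma adjusted p = 0.455). Its groups did not overlap, as in H2-Q5 (3.45 to 6.29 FPKM in knockouts, 2.08 to 3.40 FPKM in controls). These 2 were the class I members with every knockout above every control, and no class I member had every knockout below, where 2.67% and 4.42% of all genes tested did. H2-Q8 and H2-Q9 stood at 6.88 ± 5.59 and 5.47 ± 2.29 FPKM in knockout glands, and at 0.999 ± 1.09 and 2.49 ± 1.73 FPKM in control glands (SD, n = 4 and 3). H2-Q1, H2-Q2 and H2-T10 ran the other way, at 1.90 ± 0.612, 2.07 ± 0.917 and 3.05 ± 1.39 FPKM in knockout glands and 3.60 ± 1.248, 4.42 ± 2.18 and 4.86 ± 0.250 FPKM in control glands. These were the 7 class I members with an unadjusted p under 0.05, and H2-Q2, H2-Q5, H2-Q8, H2-Q9 and H2-T10 were chosen after their values were seen. In H2-Q1, H2-Q2, H2-Q8, H2-Q9 and H2-T10 knockout Jak1_44440 lay within the range of the controls and the other 3 knockouts outside it. H2-T10, for example, stood at 2.42, 2.73, 1.98 and 5.08 FPKM in knockout glands, against 5.13, 4.63 and 4.83 FPKM in control glands. In H2-Q5 and H2-Q7 Jak1_44440 was above every control. The other 3 knockouts are those with the higher H2 gene ratios described below.

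Reads of these genes are not fully their own. In GENCODE M21 transcripts, 36.4% of the 50-base stretches of H2-Q5, 26.4% of H2-Q7, 15.0% of H2-Q1 and 32.9% of H2-T10 occur in transcripts of another gene as well. For H2-K1 and H2-D1 the shares were 9.63% and 12.8%, and for B2m, H2-Ab1, H2-Eb1, Cd74 and Psmb9 they were 0.00%. No transcripts were found under the symbols H2-Q8, H2-Q9, H2-T9, H2-L and H2-Ke2, so they have no share here. Shares of genes that resemble them, such as H2-Q7, may therefore be too low. How the authors' pipeline divided shared reads is not given, so levels of H2-Q and H2-T genes are uncertain. In H2-Q6, whose transcripts share 32.0%, all 4 knockouts at involution were under 0.01 FPKM, against 1.23, 3.28 and 0.000288 FPKM in the controls. H2-Q8 stood at 3.80, 6.82, 14.7 and 2.15 FPKM in these knockouts, against 0.000683, 0.826 and 2.17 FPKM in these controls. At lactation knockout Jak1_42734 alone had H2-Q8 above 0.01 FPKM, and it alone had H2-Q6 under 0.01 FPKM. The H2-Q8 difference therefore cannot be read apart from H2-Q6, and how reads were divided between them was not tested. Class I members held 13 values above 0 and under 0.01 FPKM, and class II members none.

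H2-Q10, the gene of a secreted class I heavy chain, showed a wide spread between knockout glands. It stood at 23.4, 32.4, 41.3 and 2.85 FPKM in knockout glands, against 8.66, 6.83 and 4.48 FPKM in control glands (log2 difference 1.38 ± 0.77, limma adjusted p = 0.889). Knockout Jak1_44440 was below every control, and without it the difference was 2.15 (adjusted p = 0.0811). Without it the genotypes also differed fully in the H2 gene ratios described below. H2-T23, which encodes Qa-1, stood at 124, 85.2, 113 and 53.4 FPKM in knockout glands, against 81.9, 81.6 and 104 FPKM in control glands. H2-Q4 stood at 28.5, 45.3, 35.5 and 50.8 FPKM in knockout glands, against 36.0, 67.8 and 53.5 FPKM in control glands, and H2-T9 at 10.9 ± 5.93 FPKM in knockout glands and 7.05 ± 2.72 FPKM in control glands (SD, n = 4 and 3). The groups overlapped in these 4 genes. Of the 23 class I members outside the classical and abundant ones, none exceeded 15.4 FPKM in any of the 13 libraries, 11 never exceeded 1 FPKM, and 5 of the H2-M10 genes were listed at 0 in all 13.

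The immunoproteasome, transporter and tapasin genes and Nlrc5 overlapped between the genotypes at involution. Psmb8 stood at 47.9, 34.1, 45.7 and 37.6 FPKM in knockout glands, against 38.7, 36.7 and 30.8 FPKM in control glands (log2 difference 0.24 ± 0.18, limma adjusted p = 0.940). Psmb9 differed by 0.26 ± 0.18 (adjusted p = 0.940), and Psmb10 stood at 32.2 ± 5.56 FPKM in knockout glands and 26.5 ± 5.91 FPKM in control glands (SD, n = 4 and 3). The transporter genes Tap1 and Tap2 stood at 12.98 ± 0.955 and 34.6 ± 3.32 FPKM in knockout glands, and at 13.8 ± 3.05 and 38.7 ± 4.54 FPKM in control glands. Tapbp stood at 81.4, 58.1, 59.9 and 50.4 FPKM in knockout glands, against 76.7, 95.2 and 72.0 FPKM in control glands (log2 difference -0.36 ± 0.20, adjusted p = 0.893). The transactivator gene Nlrc5 was low, at 1.33 ± 0.6251 FPKM in knockout glands and 0.902 ± 0.285 FPKM in control glands. The knockouts and controls overlapped in all 7 genes, including Tap1, Tap2 and Psmb10.

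The main class II genes had the same highest and the same lowest library at involution. The alpha chain gene H2-Aa stood at 354, 238, 198 and 127 FPKM in knockout glands, against 296, 231 and 151 FPKM in control glands (log2 difference 0.00 ± 0.38, limma adjusted p = 0.9996). The beta chain gene H2-Ab1 stood at 331, 195, 191 and 103 FPKM in knockout glands, against 255, 192 and 124 FPKM in control glands (log2 difference 0.08 ± 0.41, adjusted p = 0.998). Cd74 stood at 754, 448, 358 and 163 FPKM in knockout glands, against 690.1, 458 and 305 FPKM in control glands (log2 difference -0.26 ± 0.52, adjusted p = 0.996). In all 3 genes knockout Jak1_43196 was the highest and knockout Jak1_44440 the lowest of the 7 libraries, so the controls lay inside the range of the knockouts. The signs of these differences were not stable. H2-Aa and H2-Ab1 became -0.28 and -0.21 without control Jak1_43914 and -0.24 and -0.19 without knockout Jak1_43196. H2-Aa also became -0.05 without knockout Jak1_43767, -0.02 without rescaling, -0.01 with quantile normalization and -0.0042 with array weights. Cd74 became 0.05 without control Jak1_44448 and 0.14 without knockout Jak1_44440.

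**Figure D2:**
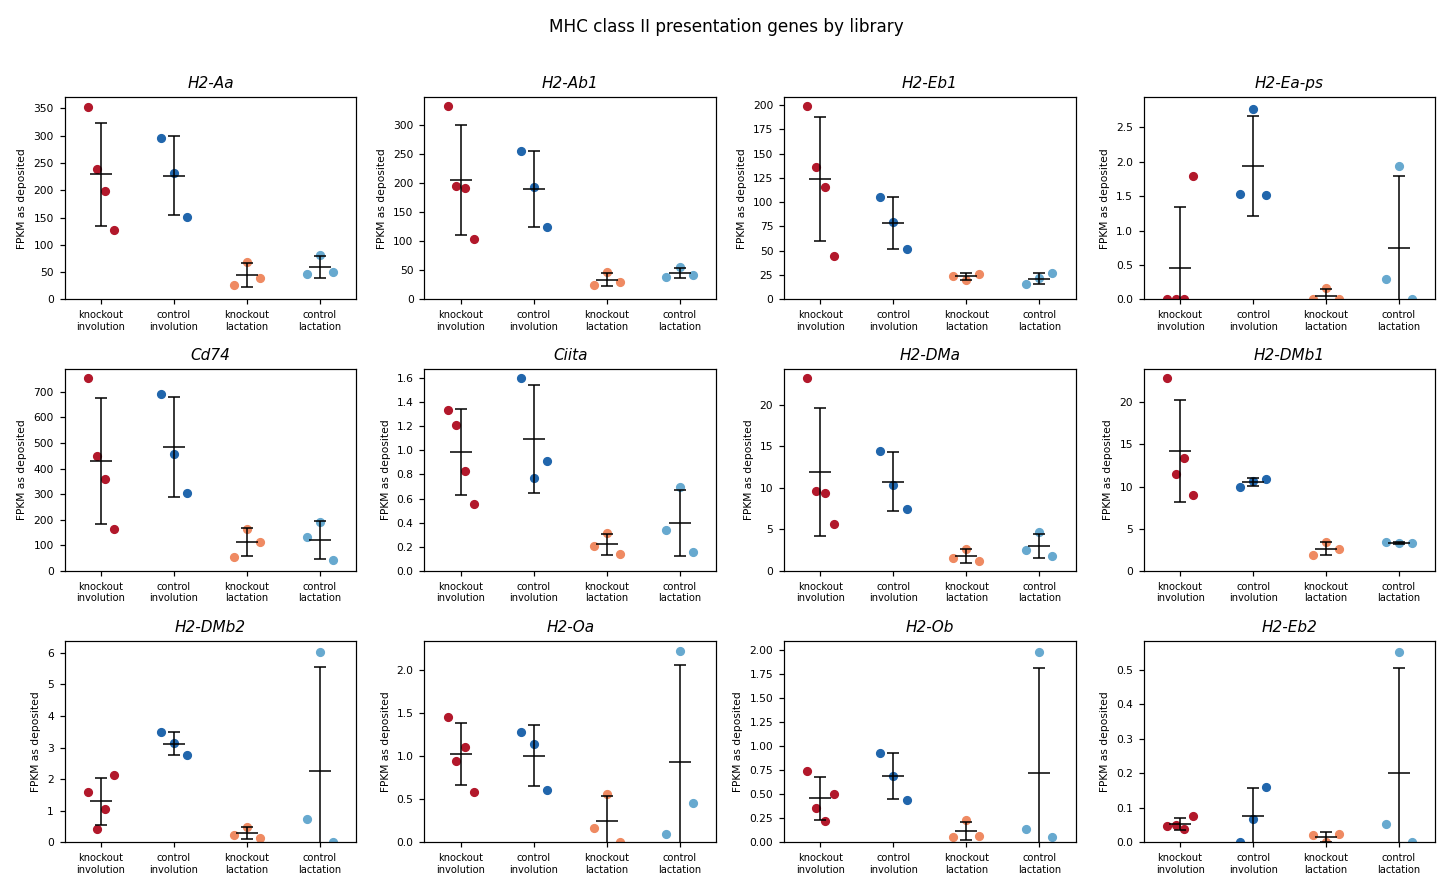
FPKM of 12 class II presentation genes in each library (points), by genotype and stage, with group means and SD as in the class I plot. H2-Aa, H2-Ab1 and Cd74 have the same highest and lowest knockout library at involution, and H2-DMb2 is the gene whose knockouts at involution (0.411 to 2.13 FPKM) all lie below the controls (2.76 to 3.49 FPKM).

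Marker sums of immune cells followed the class II sum in part. The summed FPKM of the 12 class II members was 1688, 1042, 889 and 457 in knockout glands, against 1379.6, 989.9 and 656 in control glands at involution. The summed FPKM of 12 macrophage markers was 1061, 571, 674 and 352 in knockout glands, against 561, 431 and 446 in control glands. Knockout Jak1_43196 was the highest and knockout Jak1_44440 the lowest in both sums, while the order of the controls differed. The 11 dendritic cell markers summed to 51.7, 35.5, 26.6 and 21.6 FPKM in knockout glands, against 27.9, 34.5 and 18.3 FPKM in control glands, and the 10 B and plasma cell markers to 237, 235, 91.5 and 72.3 FPKM in knockout glands, against 112, 244 and 310.4 FPKM in control glands. Over the 3 controls the B and plasma cell sum ran in the reverse order of the class II sum. Most of it was the plasma cell marker Igj, at 97.2, 229 and 291 FPKM in these controls, so its order is that of Igj and not of B cell markers. The defining B cell marker Ms4a1 was near 0, at most 0.173 FPKM at involution. Among macrophage markers 9 of 12 had a log2 difference above 0 at involution (median 0.35), 0 passed the threshold with limma, and 2 had an unadjusted p under 0.05, where 51.8% of all genes were above 0 and 6.84% had such a p. The 2 markers with such a p ran in opposite directions, Mrc1 with a log2 difference of 0.82 and Cx3cr1 with -0.65. The part of cell composition in the class II levels was not tested.

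Among the accessory class II genes, H2-DMa and H2-DMb1 also had knockout Jak1_43196 as the highest and knockout Jak1_44440 as the lowest library, and H2-DMb2 did not. H2-DMa stood at 23.2, 9.66, 9.38 and 5.62 FPKM in knockout glands, against 14.5, 10.4 and 7.42 FPKM in control glands. H2-DMb1 stood at 22.9, 11.5, 13.4 and 8.99 FPKM in knockout glands, against 9.99, 10.7 and 10.9 FPKM in control glands (log2 difference 0.35 ± 0.27, limma adjusted p = 0.946). H2-DMb2, a second beta chain gene of the exchange catalyst, stood at 1.58, 0.411, 1.07 and 2.13 FPKM in knockout glands, against 3.49, 3.13 and 2.76 FPKM in control glands (log2 difference -0.89 ± 0.27, adjusted p = 0.541). It was the class II member in which the groups did not overlap (4.42% of all genes lay lower in this way). H2-DMb2 and H2-DMb1 share 21.2% and 22.7% of their 50-base stretches with each other. H2-Oa and H2-Ob, chains of a modulator found mainly in B cells, stood at 1.02 ± 0.360 and 0.458 ± 0.223 FPKM in knockout glands, and at 1.01 ± 0.356 and 0.688 ± 0.242 FPKM in control glands (SD, n = 4 and 3). Ciita stood at 1.34, 1.21, 0.827 and 0.557 FPKM in knockout glands, against 1.60, 0.769 and 0.910 FPKM in control glands, and H2-Eb2 at up to 0.0780 FPKM in knockout glands and up to 0.161 FPKM in control glands.

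The H2-E genes encode the other class II pair. The beta chain gene H2-Eb1 stood at 199, 137, 116 and 44.3 FPKM in knockout glands, against 105, 79.1 and 51.3 FPKM in control glands (log2 difference 0.55 ± 0.49, limma adjusted p = 0.963, and 0.98 with adjusted p = 0.422 without knockout Jak1_44440). H2-Ea-ps, the alpha chain locus that is a pseudogene in the reference strain, was listed at 0 in knockouts Jak1_43196, Jak1_43767 and Jak1_44176, at 1.80 FPKM in knockout Jak1_44440 and at 1.54, 2.77 and 1.51 FPKM in control glands (log2 difference -1.15 ± 0.39, adjusted p = 0.599, and -1.52 with adjusted p = 0.0825 without knockout Jak1_44440). Knockout Jak1_44440 was the lowest of the 7 libraries in H2-Eb1 and lay among the controls in H2-Ea-ps.

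Ratios between H2 genes within a library divided the 13 libraries the same way in 3 gene pairs. These pairs were picked with their values in view, so their division is a description without a test. H2-Eb1 over H2-Ab1 was 0.600, 0.700, 0.607 and 0.428 in knockout glands and 0.413, 0.411 and 0.415 in control glands at involution. At lactation it was 0.972, 0.424 and 0.896 in knockout glands and 0.412, 0.397 and 0.627 in control glands. The values fell into a narrow range of 0.397 to 0.428 in 7 libraries and a wider one of 0.600 to 0.972 in 6 libraries. H2-Q10 over H2-Q4 lay at 0.696 to 1.16 in those 6 libraries and at 0.0561 to 0.241 in the other 7. H2-K1 over H2-D1 lay at 0.966 to 1.20 in the 6 and at 0.558 to 0.857 in the 7. The ranges lay 1.40-fold apart for the first pair, 2.89-fold for the second and 1.13-fold for the third, where this was not the largest gap. The 6 libraries were knockouts Jak1_43196, Jak1_43767 and Jak1_44176 at involution, knockouts Jak1_44174 and Jak1_43767 at lactation and control Jak1_44175 at lactation. The division therefore crossed the genotype labels at lactation. At involution all 3 controls and 1 of 4 knockouts, Jak1_44440, had the lower ratios. Without Jak1_44440, genotype and this division coincide at involution. They cannot be told apart in any difference given without that library, including those of H2-Q10 and H2-Ea-ps. With all 7 involution libraries, 3 of 4 knockouts and 0 of 3 controls had the higher ratios. Genotype and division then part through Jak1_44440 alone, so the differences over all 7 are not free of this division either. In B2m, H2-K1, H2-Eb1 and H2-Q10 those 3 knockouts were the 3 highest involution libraries, and in H2-D1, H2-Aa and Cd74 they were not. Mouse number Jak1_43767 was among the 6 and number Jak1_43768 among the 7 at both stages. H2-Ea-ps was above 0 in none of the 6 libraries and in all of the 7. Laboratory strains differ in their H-2 haplotypes, and the part of haplotype in these values, and in the knockout differences of the genes named, was not tested.

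**Figure D3:**
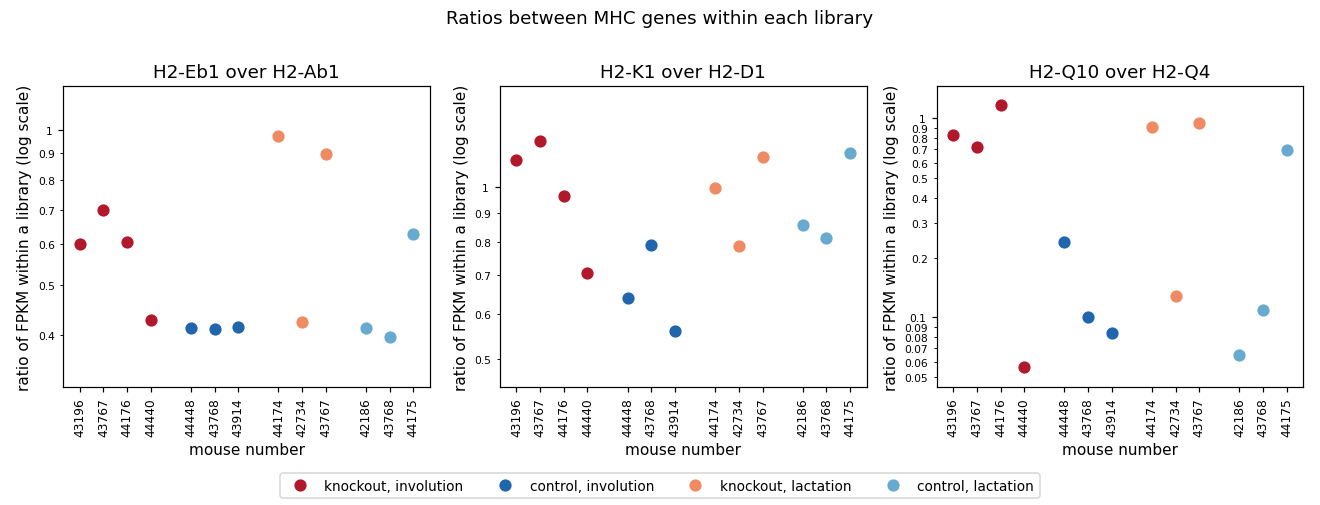
Ratio of the FPKM of 2 genes within each of the 13 libraries (log axis), by mouse number and coloured by genotype and stage. In each of the 3 panels the same 6 libraries are the highest: 3 of 4 knockouts at involution, 2 of 3 knockouts at lactation and 1 of 3 controls at lactation.

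At day 7 of lactation, again no member differed between knockout and control glands past the threshold. Of 24 class I and 6 class II members tested, 0 passed with limma (lowest adjusted p = 0.998 in each class), and 1 and 0 had an unadjusted p under 0.05. Among all 9560 genes 1 passed (0.0105%), the ribosomal RNA precursor Rn45s, which is no member and was listed at 0 in the controls, and 228 had an unadjusted p under 0.05 (2.38%). This count became 2 and 3 without controls Jak1_42186 and Jak1_44175, and 0 without any of the 3 knockouts. The median log2 difference was -0.11 over class I members, -0.29 over class II members and 0.01 over all genes. Of the class I members 10 of 24 were above 0, and of the class II members 2 of 6, against 51.2% of all genes. No member had every knockout above every control, where 2.89% of all genes did.

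B2m stood at 238, 250.002 and 353 FPKM in knockout glands, against 370.3, 393 and 355 FPKM in control glands at lactation (log2 difference -0.36 ± 0.30, limma adjusted p = 0.998). Every knockout was below every control, which held for 3.17% of all genes, although knockout Jak1_43767 and control Jak1_44175 nearly met. It was the class I member of which this was true. H2-K1 stood at 106, 100.005 and 119 FPKM in knockout glands, against 91.4, 112 and 95.3 FPKM in control glands (log2 difference 0.18 ± 0.25, adjusted p = 0.998). H2-D1 stood at 106, 127 and 105 FPKM in knockout glands, against 107, 138 and 83.1 FPKM in control glands (log2 difference 0.14 ± 0.30, adjusted p = 0.998, and -0.10 without control Jak1_44175 or -0.19 with array weights). Both heavy chain genes overlapped between the groups.

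The immunoproteasome genes were low at lactation, and their group difference was smaller without control Jak1_44175. Psmb8 stood at 5.09, 8.52 and 8.13 FPKM in knockout glands, against 6.54, 15.6 and 19.8 FPKM in control glands (log2 difference -0.70 ± 0.37, limma adjusted p = 0.998, and -0.46 without control Jak1_44175). Psmb9 stood at 5.34, 5.71 and 5.61 FPKM in knockout glands, against 4.17, 11.02 and 20.5 FPKM in control glands (log2 difference -0.69 ± 0.43, adjusted p = 0.998, and -0.25 without control Jak1_44175). Psmb9 varied little among the knockouts and widely among the controls. H2-Q10 stood at 6.28, 2.93 and 12.6 FPKM in knockout glands, against 1.09, 2.27 and 4.61 FPKM in control glands (log2 difference 1.18 ± 0.49, adjusted p = 0.998), and was the class I member with an unadjusted p under 0.05 (0.0448). H2-Q1 stood at 1.89, 23.6 and 3.31 FPKM in knockout glands, against 18.1, 25.9 and 8.001 FPKM in control glands. Its 3 lowest lactation values belonged to knockouts Jak1_44174 and Jak1_43767 and control Jak1_44175, the lactation libraries with the higher H2 ratios. The same 3 libraries had the 3 highest lactation values of H2-Q10, which is itself part of 1 of these ratios. They also had the 3 lowest of H2-T10, at 0.299, 0.569 and 0.676 FPKM, against 1.205 to 1.74 FPKM in the other lactation libraries. H2-T10 was named here with its values in view.

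Class II genes at lactation overlapped between the genotypes. H2-Aa stood at 26.5, 69.1 and 38.7 FPKM in knockout glands, against 45.5, 81.6 and 49.2 FPKM in control glands (log2 difference -0.38 ± 0.40, limma adjusted p = 0.998), and H2-Ab1 differed by -0.38 ± 0.30 (adjusted p = 0.998). Cd74 stood at 56.2, 165 and 114 FPKM in knockout glands, against 132, 191 and 43.7 FPKM in control glands (log2 difference 0.04 ± 0.63, adjusted p = 0.999). Its sign turned in 5 alternatives, to -0.62 without control Jak1_44175, -0.29 without knockout Jak1_42734, -0.05 without knockout Jak1_43767, -0.02 without rescaling and -0.54 with array weights. H2-Eb1 differed by 0.22 ± 0.24 (adjusted p = 0.998). Control Jak1_43768 stood apart in less abundant class II members, with H2-DMb2 at 6.02 FPKM, H2-Oa at 2.22 FPKM, H2-Ob at 1.98 FPKM and H2-Eb2 at 0.552 FPKM, each the highest of all 13 libraries. In that library Ms4a1 stood at 3.65 FPKM, Cr2 at 1.23 FPKM and the lymphoid stroma chemokine gene Cxcl13 at 7.06 FPKM, against at most 0.0434, 0.0159 and 0.992 FPKM in the other lactation libraries. The T and NK cell markers summed to 40.5 FPKM there and to 1.80 to 8.29 FPKM in the others. The other lymph node stroma markers did not stand apart there. Ccl21a and Ccl19 were listed at 0 in all 13 libraries, and Tnfsf11 was at most 0.298 FPKM. Madcam1 and Pdpn stood at 0.823 and 0.536 FPKM there, against 0.428 to 1.49 and 0.590 to 1.27 FPKM in the other lactation libraries. Cxcl13 also reached 4.64 FPKM in control Jak1_43914 at involution. The part of lymphoid tissue in these values was not tested.

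**Figure D4:**
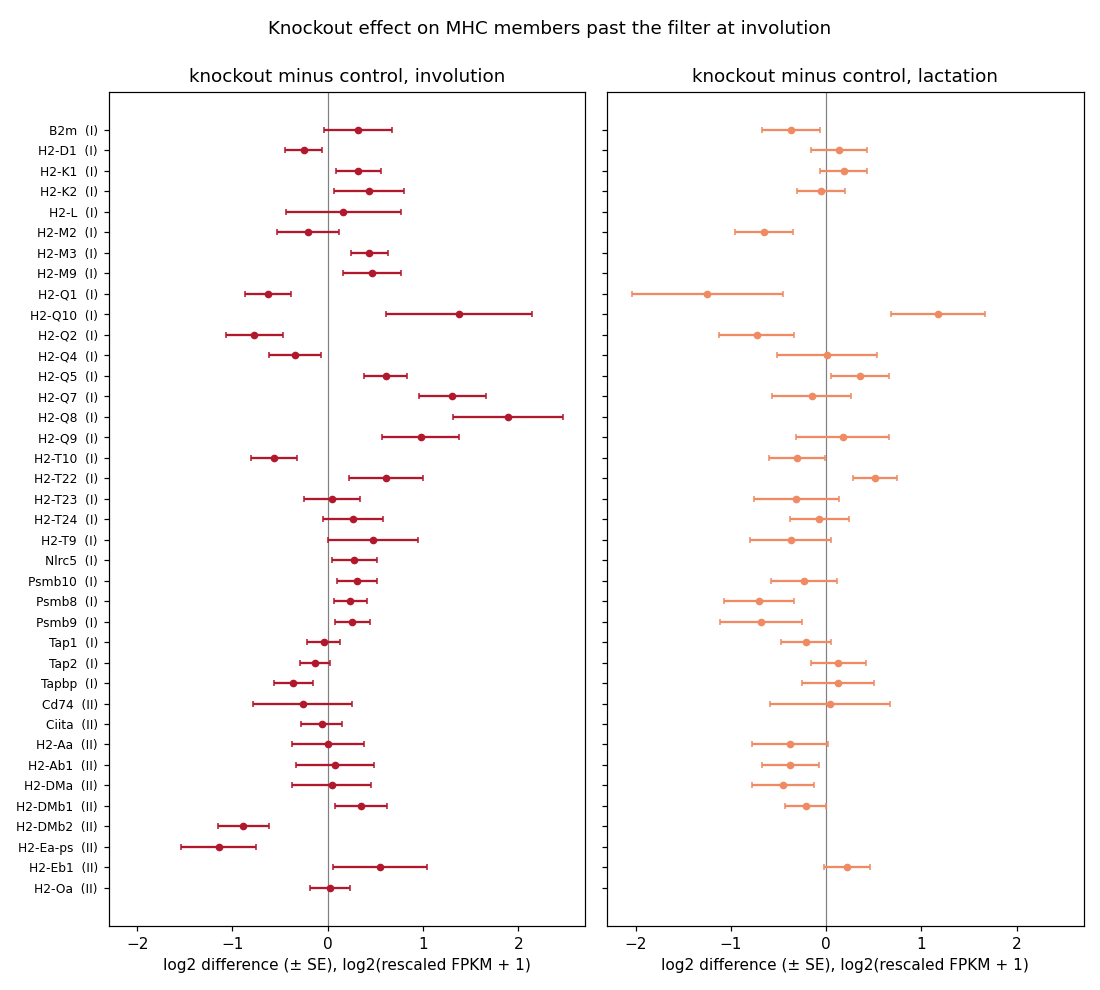
Log2 difference of knockout minus control (points, bars ± SE, log2 of rescaled FPKM + 1) at involution and at lactation for the 38 class I (I) and class II (II) members tested at involution. Members without a point at lactation were below the filter there. No member passed an adjusted p of 0.05 at either stage.

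The knockout effect was also compared between the stages, as the effect at involution minus that at lactation in a joint fit of all 13 libraries. Of 29 class I and 10 class II members tested, 0 passed with limma (lowest adjusted p = 0.999), and 2 and 0 had an unadjusted p under 0.05, where 10 of 12667 genes passed (0.0789%) and 424 had such an unadjusted p (3.35%). Of the class I members 22 of 29 were above 0, and of the class II members 7 of 10, against 51.1% of all genes. The 10 became 6 without knockout Jak1_42734 of lactation or control Jak1_43768 or Jak1_43914 of involution. Psmb8 and H2-Q7 were the 2 members, with a difference of 0.94 ± 0.42 and of 1.46 ± 0.59 on the log2 scale (adjusted p = 0.999 each). Psmb9 differed by 0.94 ± 0.49 and B2m by 0.68 ± 0.47 (adjusted p = 0.999 each). Without control Jak1_44175 of lactation Psmb8 and Psmb9 came to 0.69 and 0.51. This fit treats the 13 libraries as independent, although Jak1_43767 and Jak1_43768 occur at both stages. With mouse number as a random replicate block, 20 genes passed, again with 0 class I and 0 class II members.

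Between the stages levels were set side by side without a test, because the tables may have been normalized separately and stage and table cannot be told apart. Most members were higher at involution, as most genes were. Of 29 class I members that passed the filter, 19 had every involution library above every lactation library in knockout glands and 16 in control glands. Of 10 class II members it was 7 in both genotypes. Of all 12667 genes, 80.1% lay this way in knockout glands and 73.3% in control glands. The ratio of means, involution over lactation, had a median of 3.38 in knockout glands and 2.57 in control glands over class I, and of 5.19 and 3.38 over class II. Over all genes it was 2.91 in knockout glands and 2.73 in control glands. H2-Aa was 5.12 times higher at involution in knockout glands and 3.85 times in control glands, and H2-K1 2.95 and 2.57 times. B2m was 2.47 times higher in knockout glands and 1.43 times in control glands. H2-Q1 ran against this order, at 1.30 to 2.67 FPKM in knockout and 2.16 to 4.45 FPKM in control glands of involution, and at 1.89 to 23.6 FPKM in knockout and 8.001 to 25.9 FPKM in control glands of lactation. In control glands every involution library lay below every lactation library in H2-Q1, which held for 2.34% of all genes. In knockout glands this held for no member and for 2.44% of all genes.

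Ratios within a library do not depend on the scale of a table. Psmb8 over Psmb5, the immunoproteasome subunit over its constitutive counterpart, was 0.345, 0.378, 0.329 and 0.317 in knockout glands and 0.281, 0.363 and 0.195 in control glands of involution. At lactation it was 0.0846, 0.189 and 0.198 in knockout glands and 0.174, 0.358 and 0.215 in control glands. The 4 knockouts at involution lay above all 3 knockouts at lactation, whereas the controls of the stages overlapped. Psmb10 over Psmb7 behaved alike in the knockouts, at 0.157 to 0.233 at involution and 0.0463 to 0.0780 at lactation, and stood at 0.0937 to 0.214 and 0.0458 to 0.119 in controls. B2m over H2-K1 was 1.48 to 2.39 in knockout glands and 1.95 to 2.28 in control glands of involution, and 2.25 to 2.98 in knockout glands and 3.51 to 4.05 in control glands of lactation. At lactation this ratio was lower in every knockout than in every control, and at involution the groups overlapped. How often other gene pairs separate in this way was not computed for any ratio given here, so these separations are descriptions only.

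None of the lists of other pathway genes held a gene past the threshold with limma at either stage. Of 16 regulators of class I and interferon genes tested at involution, 6 were above 0 and 10 below, with a median log2 difference of -0.07, and 2 had an unadjusted p under 0.05, against 51.8% of all genes above 0 and 6.84% with such a p. Irf9, a transcription factor of the interferon response, stood at 18.1, 20.1, 18.3 and 21.6 FPKM in knockout glands, against 24.3, 28.1 and 29.3 FPKM in control glands (adjusted p = 0.570), with no overlap, as in 4.42% of all genes that lay lower in this way. Nfkb1, an NF-kB subunit, stood at 11.6 to 14.1 FPKM in knockout glands and 15.2 to 17.4 FPKM in control glands. Irf1, an interferon-induced factor that acts on MHC promoters, stood at 19.0, 21.1, 18.3 and 23.7 FPKM in knockout glands, against 23.4, 24.3 and 21.2 FPKM in control glands (log2 difference -0.14 ± 0.15, limma adjusted p = 0.974). Ifng was at most 0.153 FPKM in any library. At lactation Irf1 ranged from 3.52 to 5.08 FPKM in knockout glands and 3.12 to 6.81 FPKM in control glands, and Irf9 from 6.63 to 8.76 FPKM in knockout glands and 8.45 to 16.3 FPKM in control glands.

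Among 13 genes of class I loading and peptide supply, 6 were above 0 and 7 below at involution (median -0.06). Calr, the loading chaperone calreticulin, stood at 296, 267, 309 and 201 FPKM in knockout glands, against 357, 391 and 615 FPKM in control glands (adjusted p = 0.637 with limma), and Sec61a1, a translocon subunit, at 45.9 to 59.9 FPKM in knockout glands and 64.9 to 80.1 FPKM in control glands. In both genes every knockout was below every control, which held for 4.42% of all genes. Among 7 class I-like genes outside the H2 names, Cd1d1, which presents lipids to NKT cells, had the smallest p. It stood at 57.1, 59.7, 56.2 and 47.6 FPKM in knockout glands, against 86.9, 93.9 and 105 FPKM in control glands (log2 difference -0.75 ± 0.16, limma adjusted p = 0.274), again with no overlap and lower, as in 4.42% of all genes. At lactation Cd1d1 stood at 8.83, 7.57 and 4.47 FPKM in knockout glands, against 7.81, 6.57 and 46.1 FPKM in control glands, with control Jak1_44175 far above the rest. Mr1, which presents vitamin B metabolites to MAIT cells, overlapped at involution, and Fcgrt, the neonatal Fc receptor, overlapped at lactation.

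Among 16 genes of class II transcription and processing, 5 were above 0 and 11 below at involution (median -0.10). Lgmn, the lysosomal asparaginyl protease legumain, stood at 93.2, 68.2, 92.7 and 64.6 FPKM in knockout glands, against 57.4, 58.8 and 52.6 FPKM in control glands (adjusted p = 0.654 with limma), with every knockout above every control, which held for 2.67% of all genes. Cathepsin B (Ctsb) stood at 209 to 376 FPKM in knockout glands and 351 to 576 FPKM in control glands (adjusted p = 0.703), and the groups overlapped. Of 5 tested receptors and costimulatory genes, all were above 0 (median 0.08) with adjusted p of 0.946 or more. Their levels were low, with Lag3 at 1.07 to 2.26 FPKM in knockout glands and 0.595 to 2.05 FPKM in control glands, and Cd274 at 0.981 to 2.97 FPKM and 1.38 to 1.89 FPKM. At lactation the genes of smallest p were Irf9 and the kinase gene Tyk2 among the regulators, Sec61a1 and the peptide-trimming Erap1 in class I loading, and the Y box factor gene Nfya and cathepsin L (Ctsl) in class II processing, each with an adjusted p of 0.998 and overlapping groups.

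The 2 members outside presentation overlapped at both stages. H2-Ke2 stood at 83.2 ± 11.9 FPKM in knockout glands and 68.9 ± 5.20 FPKM in control glands at involution (SD, n = 4 and 3), and H2-Ke6 at 52.0 ± 8.02 FPKM in knockout glands and 41.0 ± 12.5 FPKM in control glands. Transcripts of H2-Ke6 share 70.5% of their 50-base stretches with genes outside the members, so its level is uncertain. At lactation H2-Ke2 stood at 30.4 ± 6.54 FPKM in knockout glands and 30.7 ± 10.9 FPKM in control glands (SD, n = 3 each).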

How the data were processed

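Gene expression in 13 mammary gland libraries was analysed from 2 tables deposited by the authors, 1 per stage, that hold FPKM per gene symbol and library. Per the submitters' processing notes, CASAVA, cutadapt and TopHat were used with build mm9. Versions, the quantification program, its annotation and its treatment of shared reads were not given in the sources used here. Fragment numbers are unknown, so no counting intervals are given. Groups and mouse numbers came from the titles, which carry 11 numbers for 13 libraries. Libraries within a stage carry different numbers.

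Within each table, libraries were rescaled by the median ratio to the geometric mean library over symbols that reached 1 FPKM everywhere. Values then entered as log2(value + 1), a scale that understates changes of low genes. A gene was tested when 3 or more of the libraries fitted reached 1 FPKM. The test was that of limma 3.58.1 in R 4.3.3 (two-sided, with an intensity trend), and p-values were adjusted across the whole table by Benjamini-Hochberg, with 0.05 as the threshold. The fits returned the changes put into simulated data. Those changes were large, sat only in genes that were not low, and had the same spread in every gene. They therefore do not show that smaller or more variable differences of the members would be found. Of the members 40 were tested at involution, 32 at lactation, 41 in the joint fit and 13 at neither stage. Levels are printed as deposited. The members, gene lists, naming rule (named symbols, class II, classical class I and class I means of 10 FPKM or more) and alternatives were chosen with earlier results of these data known, and the genes given a log2 difference are a part of them chosen with their values known. The NF-kB and interferon motifs were shortened by a base or more at their ends after a first search with longer forms. Alternatives were a pseudocount of 0.1, no filter, no rescaling, quantile normalization, array weights, a joint fit, each library left out in turn and, added later for the difference between the stages, mouse number as a random block.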

Additional observations from a re-analysis of the deposited data

Results flagged for a closer look

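Of 40 members tested at involution, 3 had a knockout library whose gap to the nearest other knockout was above Dixon's critical value as a share of the range, where chance flags about 1 group in 20. H2-Ea-ps stood at 1.80 FPKM in knockout Jak1_44440 and was listed at 0 in the other 3 knockouts. H2-K2, a class I heavy chain locus of low level, stood at 4.12 FPKM in knockout Jak1_44176 and at 10.4 to 10.8 FPKM in the other 3. H2-T22, a T region class I gene, stood at 15.4 FPKM in knockout Jak1_44176 and at 4.51 to 5.35 FPKM in the other 3. H2-K2 and H2-T22 were named here because of these values. Groups of 3 libraries were not checked in this way. In no member did the knockout effect differ between the stages past the threshold. Jak1_44176 also had the highest skeletal muscle marker sum of the 4 knockouts, 4215 FPKM against 4.20 to 545 FPKM, whose part in these values was not tested.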

How the results depend on the processing

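No tested class I or class II member passed the threshold under any alternative, and of 31 gene results 26 kept their sign in all of them. The exceptions were as follows. H2-Aa at involution became -0.025 without rescaling, -0.011 with quantile normalization and -0.0042 with array weights. Cd74 at lactation became -0.023 without rescaling and -0.54 with array weights, and H2-D1 at lactation became -0.19 with array weights. With 1 library left out, the log2 difference at involution lay between -0.28 and 0.26 for H2-Aa, -0.21 and 0.37 for H2-Ab1 and -0.60 and 0.14 for Cd74, and at lactation between -0.62 and 0.497 for Cd74 and -0.099 and 0.33 for H2-D1. The numbers of all genes past the threshold were less stable. At involution, 9 genes became 20 with array weights, 27 in a joint fit of both stages and 2 to 9 with 1 library left out. At lactation, 1 gene became 2 with a pseudocount of 0.1, 9 with array weights, 2 in the joint fit and 0 to 3 with 1 library left out. For the difference between the stages, 10 genes became 16 with array weights and 6 to 12 with 1 library left out. The cause was not tested. No paired analysis was possible because the groups compared within a stage share no mouse number. For the difference between the stages, mouse number as a random replicate block, an alternative chosen after seeing the data, gave 20 genes. The numbers Jak1_43767 and Jak1_43768 alone recur, 1 in each genotype, and whether they mark the same animals is not stated. Unknown depth and shared reads limit low H2-Q and H2-T values and H2-Ke6.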
